A study of Gallus gallus with 8 samples.

Results

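The 100 genes described here were chosen because their RNA was lower in both libraries of SF3B1 knockout chicken cells than in every other library of the study, while their mean levels in DLC1 and PHF5A knockouts stayed near control. They are called the SF3B1-low genes below. They were taken from 30862 features of the deposited count table. The choice was confined to chromosomes 1 to 15, 17 to 24, 26 and 28 and to genomic spans over 1 kb and up to 300000 bases, which left 24413 features. Levels are CPM, a gene's counts scaled to the non-mitochondrial total of its library, with 0.5 added. Of these features 8957 had a control mean of at least 5 CPM, and 4862 of those had DLC1 and PHF5A means each within 1.5-fold of the control mean. Among the 4862 genes, 243 had both SF3B1 values below all 6 other libraries (5.0% of the genes passing the filters), and the 100 with the lowest ratio of the highest SF3B1 value to the lowest other value were kept. They make up 2.06% of the genes passing the filters.

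The cells were primary trunk neural crest cells of Gallus gallus, collected as GFP+ cells. Neural crest cells leave the dorsal neural tube of the embryo, and in the trunk their descendants include sensory and sympathetic neurons, Schwann cells and melanocytes. The 4 groups were scrambled gRNA control, DLC1 knockout, PHF5A knockout and SF3B1 knockout, each with 2 libraries, and the knockouts were made with CRISPR-Cas9. Within a knockout, 1 library came from gRNA1 and 1 from gRNA2, so their spread joins guide and library differences. Whether the libraries came from separate embryos or cultures is not stated in the labels. A p-value here thus measures the spread between libraries, which may be technical in part. The controls held 0.198% and 0.00279% of non-mitochondrial counts on the female-specific W chromosome, so they were not repeat libraries of the same cells. About 50000 cells were collected per treatment. Cells in which editing failed could not be told apart from edited ones, and fewer cells of a type cannot be told apart from less RNA per cell.

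SF3B1 is the large scaffold protein of SF3b, a complex that joins the U2 snRNP and clamps the branch point of an intron early in splicing. PHF5A is a small SF3b protein packed against SF3B1 near the pocket that takes up the branch point adenosine. When branch point recognition fails, an intron can be retained, an exon can be skipped or another branch point can be used, and many such transcripts are degraded. Gene counts as deposited do not separate these events.

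Identifiers in the deposited table carry no gene names, and 0 of them could be paired with a name in the RefSeq table of 25635 genes, which is of another assembly. The level of each targeted gene, cell type markers and pathway membership were therefore not analysed here, and the label of neural crest could not be set against its markers. The SF3B1-low genes are described by level, size of the difference, position, span and neighbours. The 2 with the lowest ratio are given by identifier and others by position on GRCg6a, the build named in the submitters' processing notes. No function is given for any of them.

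Non-mitochondrial counts ran from 14200279 to 31617387 per library and were highest in the DLC1 and PHF5A groups. Mitochondrial counts took 25.9% and 21.4% of controls 1 and 2. In the knockouts they took 8.01% to 9.65% of the guide 1 libraries and 15.7% to 19.6% of the guide 2 libraries. The rule left them out of the totals, and the part of this difference in the comparisons of guides was not tested. The control libraries differed in their share of counts on the female-specific W chromosome (0.198% and 0.00279% of non-mitochondrial counts), against 0.0402% to 0.259% in the knockouts. The SF3B1-low genes lie on autosomes. Fits that leave out a control or hold the log2 of the W share as a covariate are given beside the counts of called genes. The SF3B1-low genes had median counts of 848 and 740.5 in the SF3B1 guide 1 and guide 2 libraries and 980 and 997.5 in the controls. The fewest reads of any of them in a library were 19.

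In SF3B1 knockout the genes stood a median 1.33-fold below control. The smallest difference was 1.12-fold and the largest 2.62-fold. Of the 100 genes, 4 were at least 2-fold lower, 25 at least 1.5-fold lower, and the lower quartile was 1.24-fold. The median log2 ratio to the control mean was -0.42 in the guide 1 library and -0.36 in the guide 2 library. Over all 4862 genes passing the filters it was 0.13 and 0.04 in the same libraries. On TMM-scaled CPM, a scaling taken up with the fits, the genes passing the filters stood at -0.18 and -0.17 and the SF3B1-low genes at -0.73 and -0.57, so the level of the comparison genes relative to control changes sign with the scaling. Both SF3B1 libraries lay below both controls for 18.9% of the genes passing the filters and for all 100 by the rule. These values chose the genes and are a description of them.

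In the other knockouts the same genes were spread around control. DLC1 guide 1 and guide 2 gave median log2 ratios to control of 0.10 and 0.13, and PHF5A guide 1 and guide 2 gave -0.01 and 0.00. Both DLC1 libraries lay above both controls for 46 genes and below both for 10, against 34.2% and 22.6% of the genes passing the filters. Both PHF5A libraries lay above both controls for 24 genes and below both for 19, against 29.8% and 22.3%. The rule held these means within 1.5-fold of control and set the lowest of the 6 values against SF3B1, so nothing is read from these counts. The library that set the lowest of the 6 values was a PHF5A library for 47 genes (22 with guide 1 and 25 with guide 2), a control for 42 (15 and 27) and a DLC1 library for 11 (3 and 8).

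**Figure D1:**
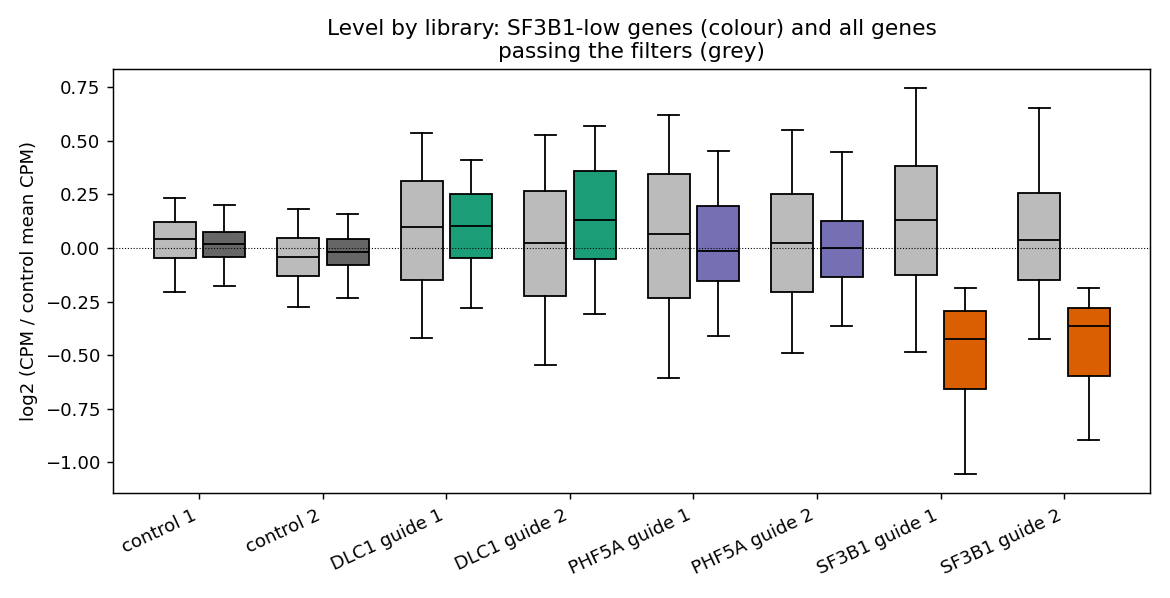
Boxes show the quartiles and median of log2 (CPM / control mean CPM) in each of the 8 libraries, with whiskers at the 5th and 95th percentiles, for the 100 SF3B1-low genes (colour) and the 4862 genes passing the filters (grey). The coloured boxes are low in both SF3B1 libraries (medians -0.42 and -0.36), which is how the genes were chosen, and overlap 0 in the other 6.

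The SF3B1-low genes together took a smaller share of the non-mitochondrial counts in SF3B1 knockout, which the rule fixed in advance. They held 2.23% and 2.22% of the non-mitochondrial counts in the controls and 1.58% and 1.73% in the SF3B1 libraries. In the DLC1 libraries the share was 2.44% and 2.78%, and in the PHF5A libraries 2.23% and 2.32%. A single gene held a large part of this, as described further on. Without it the share was 1.251% and 1.259% in controls, 0.929% and 0.966% in SF3B1 knockout, 1.37% and 1.42% in DLC1 knockout, and 1.31% in each PHF5A library.

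ENSGALG00000027534, on chromosome 13 (13715504 to 13719391, minus strand), had the lowest ratio, 0.64. Its level was 61.2 and 50.4 CPM in the controls, 59.9 and 94.3 in the DLC1 libraries, 40.0 and 44.4 in those of PHF5A, and 25.6 and 18.6 in those of SF3B1 (guide 1 and guide 2 in each knockout). Both SF3B1 values were far below the rest, and both PHF5A values also lay below both controls. The SF3B1 mean of 22.1 ± 4.93 CPM was 2.52-fold below the control mean of 55.8 ± 7.67 CPM (SD, n = 2 each). In the fit across all genes its log2 fold change was -1.62 (SE 0.259) against control, -1.93 (SE 0.259) against DLC1 and -0.97 (SE 0.255) against PHF5A knockout.

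ENSGALG00000047749, on chromosome 15 (112179 to 118541, minus strand), followed with a ratio of 0.693. It stood at 46.3 and 35.5 CPM in the controls, 51.5 and 60.6 in DLC1, 42.7 and 53.4 in PHF5A and 24.6 and 24.0 in SF3B1 knockout. The SF3B1 guides gave nearly the same value, and the PHF5A values overlapped the controls. The log2 fold change was -1.02 (SE 0.207) against control, -1.31 (SE 0.206) against DLC1 and -1.01 (SE 0.205) against PHF5A knockout.

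The gene of rank 4 by ratio spans 113 kb of chromosome 1 (34322106 to 34434865, plus strand) and had many reads behind each value. It stood at 592.6 and 516.7 CPM in the controls, 754.8 and 803.9 in DLC1, 715.8 and 628.9 in PHF5A and 383.0 and 359.4 in SF3B1 knockout. All 4 libraries of the other knockouts lay above both controls in CPM. Its log2 fold change was -0.84 (SE 0.171) against control, -1.16 (SE 0.172) against DLC1 and -0.87 (SE 0.171) against PHF5A knockout.

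The gene of rank 3 by ratio, on chromosome 2 (55971739 to 55975005, plus strand), shows what few reads allow. It had 49 and 95 reads in the controls and 35 and 19 in the SF3B1 libraries, and stood at 3.95, 7.13, 2.48 and 1.75 CPM in these. Its 2.62-fold difference from the control mean was the largest of the 100, yet the exact Poisson 95% interval of its highest SF3B1 value overlapped that of its lowest other value. Such intervals cover counting error alone. They overlapped for 43 of the 100 genes, among them the gene of rank 6 (chromosome 1, 139105487 to 139110339, minus strand), at 8.25 and 8.53 CPM in controls and 4.17 and 4.51 in SF3B1 knockout. For the other 57 they did not. The 2 values compared are those whose ratio chose the genes, so both counts are a description of them. The overlap was not counted over the genes passing the filters.

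Among the remaining genes of the 10 lowest ratios, a 37.3 kb gene on chromosome 11 (6590170 to 6627431, minus strand) held its level most closely outside SF3B1 knockout. It lay between 70.5 and 83.9 CPM in the 6 other libraries and at 49.0 and 53.3 CPM in the SF3B1 libraries. A 3.14 kb gene on chromosome 6 (12212313 to 12215451, minus strand) stood at 25.99 and 24.1 CPM in controls and 15.0 and 16.2 in SF3B1 knockout. Its 2 DLC1 values, 25.3 and 41.0 CPM, were further apart than any other pair it had.

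A 78.7 kb gene on chromosome 17 (4357968 to 4436716, minus strand) stood at 39.2 and 29.9 CPM in controls and 21.6 and 20.2 in SF3B1 knockout. A 7.44 kb gene on chromosome 4 (44391454 to 44398892, plus strand) stood at 136.1 and 158.7 CPM in controls and 86.4 and 103.6 in SF3B1 knockout. A 143 kb gene on chromosome 1 (8841129 to 8983960, plus strand) stood at 86.6 and 67.7 CPM in controls and 53.1 and 50.1 in SF3B1 knockout. In these 3 genes both SF3B1 values lay below both controls, which the rule required of every SF3B1-low gene. The mean difference from control was 1.65-, 1.55- and 1.496-fold.

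**Figure D2:**
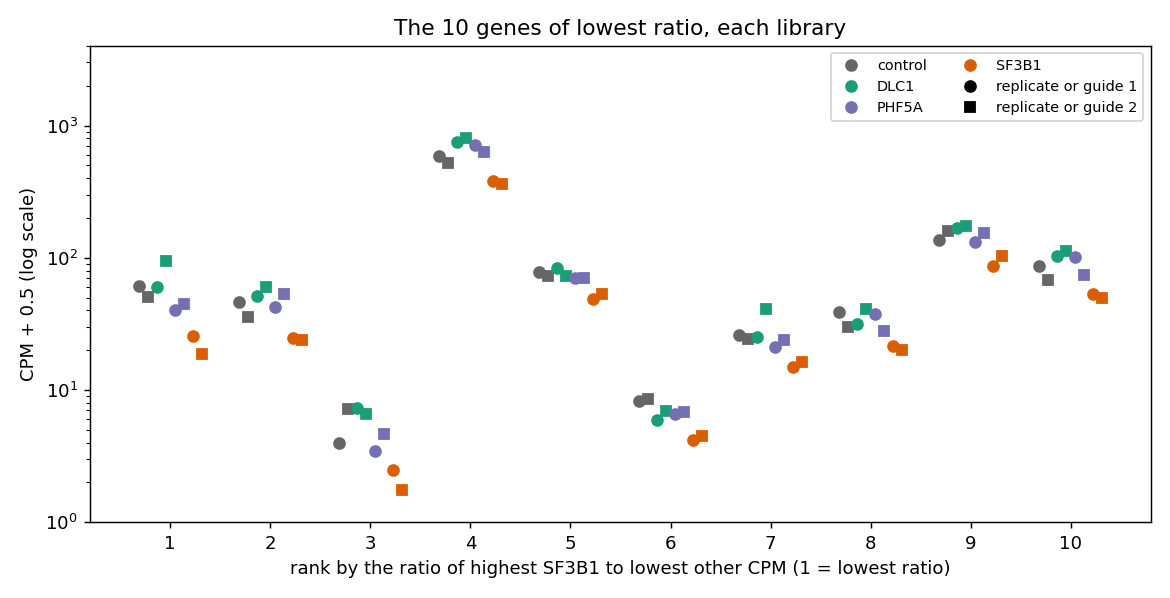
CPM plus 0.5 (log scale) of the 10 genes of lowest ratio in each of the 8 libraries, coloured by group, with circles for replicate or guide 1 and squares for replicate or guide 2. In each gene both SF3B1 points lie below the other 6; gene 3 rests on 19 to 49 reads in its SF3B1 libraries and lower control, gene 4 on at least 5460 in each library.

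The most abundant of the SF3B1-low genes by CPM, which is not scaled by length, was a 4.23 kb gene on chromosome 14 (4573324 to 4577555, minus strand). It held 0.979% and 0.958% of non-mitochondrial counts in the controls and 0.652% and 0.76% in the SF3B1 libraries. In CPM it stood at 9788.7 and 9582 in controls, 10709 and 13539 in DLC1, 9189.7 and 10034 in PHF5A and 6524 and 7599.6 in SF3B1 knockout. The PHF5A values spanned those of the controls, and both DLC1 values lay above them. It was 1.37-fold lower in SF3B1 knockout than in control.

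Of the other 4 genes with the highest control means, 1 is the chromosome 1 gene of rank 4. A 6.51 kb gene on chromosome 3 (17241261 to 17247767, minus strand) stood at 804.9 and 914.6 CPM in controls and 606.5 and 710.9 in SF3B1 knockout. A 4.34 kb gene on chromosome 13 (9856040 to 9860378, plus strand) stood at 450.8 and 752.1 CPM in controls and 364.1 and 410.4 in SF3B1 knockout. The gap between the controls of this gene was wider than the gap between the lower control and either SF3B1 value. A 25.8 kb gene on chromosome 10 (9178739 to 9204524, plus strand) stood at 602.6 and 570.0 CPM in controls and 523.7 and 470.5 in SF3B1 knockout, a 1.18-fold difference between means.

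At the edge of the choice the ratios ran together. The last 2 genes inside, a 100 kb gene on chromosome 2 (19997091 to 20097305, plus strand) and a 69.0 kb gene on chromosome 8 (8332430 to 8401431, minus strand), had ratios of 0.923. The first 2 outside, a 3.93 kb gene on chromosome 19 (8854119 to 8858046, plus strand) and a 71.3 kb gene on chromosome 4 (44465582 to 44536842, minus strand), also had ratios of 0.923. The chromosome 8 gene stood at 17.8 and 17.6 CPM in PHF5A knockout and 16.2 and 14.4 in SF3B1 knockout, so the 2 subunits were close there. The second gene outside lies near the chromosome 4 gene of rank 9 and was 1.44-fold lower in SF3B1 knockout than in control.

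The fit across all genes was edgeR's quasi-likelihood test on all 8 libraries, with trimmed mean of M-values scaling (TMM) and p-values adjusted by Benjamini-Hochberg over 15619 genes and a call at an adjusted p under 0.05. All 100 SF3B1-low genes were tested. SF3B1 knockout against control called 61 of them lower, where 5.03% of all genes tested and 4.71% of the genes passing the filters were called lower. The same values chose the genes, so nothing is read from this count. Leaving out a control or an SF3B1 library left 1 library in that group, so the size of the difference is given. The median log2 fold change of the 100 genes was -0.69 without control 1 and -0.61 without control 2. It was -0.63 without SF3B1 guide 1 and -0.82 without SF3B1 guide 2, against -0.68 with all 8 libraries. DESeq2 called 94 of the 100 lower, and 668 of the 4862 passing the filters. Scaling by library size alone gave 6 of the 100 and 6 of the 4862. That size includes the mitochondrial counts, which the CPM of the rule left out. EdgeR called 0 with the log2 of the W share held as a covariate, where 68 had an unadjusted p under 0.05. That fit called 3 of all 15619 genes and 0 of the 4862 passing the filters, with 3499 genes at an unadjusted p under 0.05. Control 2 held 0.00279% and every other library at least 0.0402%, so on a log2 scale the covariate largely marked control 2.

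The difference from the DLC1 knockout was called for 25 of the 100 genes, all lower in SF3B1 knockout (2.46% of all genes tested and 0.843% of those passing the filters were called lower). Against PHF5A knockout, the other SF3b subunit, 2 genes were called lower (0.749% of all genes tested and 0.0617% of those passing the filters). The rule placed both SF3B1 values below those of DLC1 and PHF5A, so the direction was fixed and nothing is read from these counts either. These 2 were ENSGALG00000047749 and the chromosome 1 gene of rank 4, which were called against control and DLC1 as well. The median log2 fold change of the 100 genes was -0.68 against control, -0.62 against DLC1 and -0.48 against PHF5A knockout. Of the 100 genes, 29 were called in none of these 3 comparisons, and 10 were called against DLC1 and not against control. A fit without 1 library left 1 in its group, so the median log2 fold change of the 100 is given. Against DLC1 it was -0.69 and -0.54 without DLC1 guide 1 and guide 2, and -0.56 and -0.73 without SF3B1 guide 1 and guide 2. Against PHF5A it was -0.45 and -0.46 without PHF5A guide 1 and guide 2, and -0.39 and -0.58 without SF3B1 guide 1 and guide 2. With no filter on low counts the count against PHF5A was 19, beside 33 of the 4862 genes passing the filters.

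The scaling shifted the levels in the other knockouts. The CPM of the rule kept the median log2 ratio of the SF3B1-low genes to control at 0.14 in DLC1 and 0.02 in PHF5A knockout. With TMM scaling their median log2 fold change was -0.04 in DLC1 and -0.23 in PHF5A knockout, and 58 and 85 of the 100 had a value below 0. The fit called 1 gene in DLC1 knockout and 6 in PHF5A knockout, all lower (7.88% and 13.4% of all genes tested were called lower, and 4.01% and 13.6% of those passing the filters). With a library of either compared group left out, the median log2 fold change of the 100 ran from -0.14 to 0.0005 in DLC1 knockout. In PHF5A knockout it ran from -0.28 to -0.18. On TMM-scaled CPM, genes passing the filters stood at a median of -0.18 and -0.22 against control in the PHF5A libraries, and the SF3B1-low genes at -0.27 and -0.24. Under scaling by library size alone, mitochondrial counts included, 9 genes were called in DLC1 and 5 in PHF5A knockout, all higher. The same fits called 3562 and 5029 of 15619 genes higher (260 and 354 of the 4862 passing the filters), and the median log2 fold change of all genes was then 0.48 and 0.53.

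The rule did not compare the guides directly, but by taking the highest SF3B1 value and the lowest of the others it acted on guide differences. The values that follow are therefore a description. The second guide was set against the first over the 6 knockout libraries, blocked by target. EdgeR called 0 of the 100 genes, and 0 of 15962 tested (0.0%). At an unadjusted p under 0.05 there were 15 of the 100, against 15.8% of all genes tested. DESeq2 called 2 of the 100, both higher with guide 2. It called 239 of the 15962 genes higher and 110 lower, and 61 and 15 of the 4862 passing the filters. Limma-voom called 0 of the 100 and 0 of all genes tested. The lowest adjusted p among the 100 was 0.166, for a 1.3 kb gene on chromosome 22 (4031423 to 4032719, minus strand), with a log2 difference of 0.67 (SE 0.136) towards guide 2. It was higher in the guide 2 library of each target, at 117.2 and 161.9 CPM in DLC1, 84.9 and 167.1 in PHF5A and 57.2 and 71.6 in SF3B1 knockout. Both controls, at 95.9 and 112.4 CPM, lay above both SF3B1 values and below both DLC1 values. Fits without DLC1 guide 1 or without DLC1 guide 2 each had 1 DLC1 library left, which the block for its target took up. Both thus compared the guides within PHF5A and SF3B1 knockout alone and are not separate results. The median log2 difference of the 100 was then 0.031 and 0.032, against 0.0054 and 0.0068 over all genes tested.

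Within SF3B1 knockout the guides lay close together for these genes. The median absolute log2 difference between the 2 libraries was 0.11, against 0.13 between the controls, 0.11 between the DLC1 guides and 0.21 between the PHF5A guides. Over all genes passing the filters it was 0.16 in SF3B1 knockout, 0.19 in controls, 0.16 in DLC1 knockout and 0.23 in PHF5A knockout. A rule that takes the higher of 2 SF3B1 values favours genes whose values are close. It also takes the lowest of the other 6 values, which favours close values in the other groups. The SF3B1-low genes had the smaller difference in every group. Their median control level was also higher (75.6 against 46.6 CPM), and the reason for the smaller difference was not tested. Guide 1 gave the lower value for 57 of the 100 genes, and for 40.2% of the genes passing the filters.

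**Figure D3:**
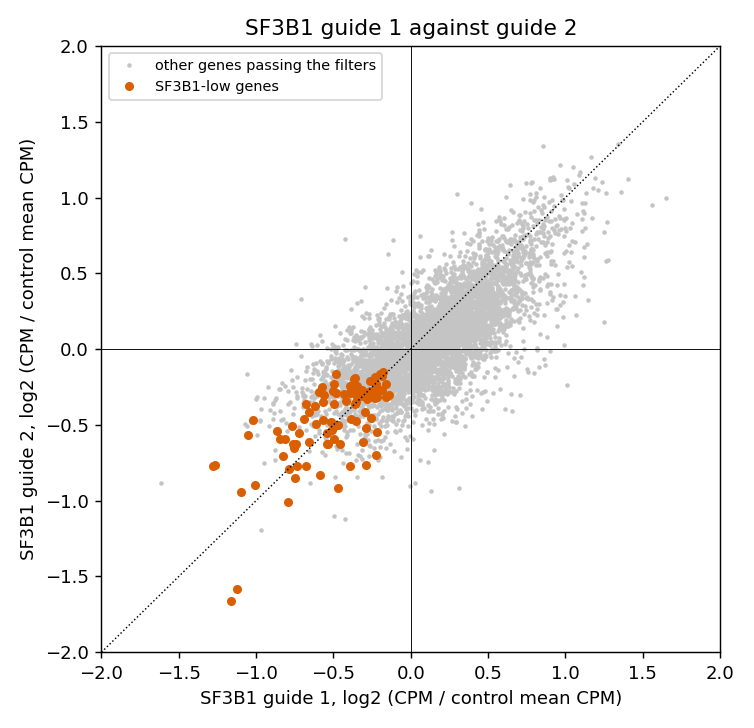
Log2 (CPM / control mean CPM) in the SF3B1 guide 1 library (x axis) and guide 2 library (y axis) for the 100 SF3B1-low genes (orange) and the other genes passing the filters (grey); the dotted line marks equal values. The orange points lie below 0 on both axes by choice, with medians of -0.42 and -0.36.

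Genes were also chosen with 1 SF3B1 library and read in the other. The other 6 libraries served both the choice and the reading, which favours genes whose lowest value among the 6 is high. The shares of all genes passing the filters are therefore not the values to expect of genes chosen this way, and the counts are a description. Of 100 genes chosen with guide 1 alone, 74 had a guide 2 value below the other 6 libraries (12.6% of genes passing the filters did) and 91 a value below both controls (29.6%). Of 100 chosen with guide 2 alone, 59 had a guide 1 value below the other 6 (9.81%) and 69 a value below both controls (26.9%). The median log2 ratio to control went from -0.61 in guide 1, where they were chosen, to -0.32 in guide 2. The reverse choice went from -0.50 in guide 2 to -0.24 in guide 1. About as many of the SF3B1-low genes appeared in each of these sets, 53 with guide 1 alone and 51 with guide 2 alone.

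By size of the fitted difference, 15 of the 100 genes had a log2 fold change of -1 or below in SF3B1 knockout against control, and 14 of these 15 were called. The values that chose the genes were those fitted, so this is a description. The fitted values ran from -1.91 to -0.43, with a median SE of 0.186.

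The genes ranged widely in span, which the rule bounded and did not rank. The median span was 16.99 kb, against 14.7 kb for genes passing the filters, and the upper quartile was 37.2 kb against 31.1 kb. Of the 253 genes of 100 to 300 kb that passed the filters, 12 were SF3B1-low (4.74%). The share was 3.25% of the 277 genes of 1 to 3 kb (9 genes), 1.76% of those of 3 to 10 kb (26 genes), 1.84% of those of 10 to 30 kb (34 genes) and 1.90% of those of 30 to 100 kb (19 genes). The longest were a 273 kb gene on chromosome 6 (15948138 to 16221322, minus strand) and a 234 kb gene on chromosome 2 (18525878 to 18759528, minus strand). The first stood at 125.0 and 130.2 CPM in controls and 112.5 and 115.1 in SF3B1 knockout, the smallest difference of the 100, and the second at 24.4 and 18.0 CPM in controls and 16.1 and 12.4 in SF3B1 knockout. The shortest, of 1.28 kb on chromosome 17 (5837879 to 5839156, minus strand), stood at 152.3 and 176.2 CPM in controls and 116.5 and 140.0 in SF3B1 knockout.

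The span of the chosen genes depended on the guide. With guide 1 alone the 100 genes had a median span of 6.52 kb and 21 were of 1 to 3 kb. With guide 2 alone the median was 23.4 kb, with 7 genes of 1 to 3 kb and 17 of 100 to 300 kb. Over all genes passing the filters, those of 1 to 3 kb had a median log2 ratio to control of -0.15 in the guide 1 library and -0.03 in the guide 2 library, and those of 100 to 300 kb had 0.14 and -0.07. The SF3B1-low genes of 1 to 3 kb stood at -0.79 and -0.57, and those of 100 to 300 kb at -0.39 and -0.52. The guide with the lower median was thus guide 1 among the shortest SF3B1-low genes and guide 2 among the longest, as among all genes passing the filters. In the PHF5A libraries the guides also differed by span: all genes of 1 to 3 kb stood at -0.35 and -0.04 and those of 100 to 300 kb at 0.27 and 0.09. The SF3B1-low genes stood at -0.08 and 0.00 in the shortest class and at 0.09 and 0.08 in the longest in those libraries. The part of this shift between the guides in the choice of genes was not tested.

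The genes found by the same rule turned round (both SF3B1 values above the other 6) made a contrast with the SF3B1-low genes in span and level. On the CPM of the rule such genes were more numerous, 720 against 243 of the 4862 genes (14.8% against 5.0%). The count of genes below the other 6 changed with the scaling. It was 599 of 5057 on TMM-scaled CPM and 99 of 4110 with CPM over all counts. Genes above the other 6 were not counted on those scales. The 100 genes of highest ratio by the turned rule, called SF3B1-high below, had a median span of 10.02 kb. Of these, 0 spanned 100 to 300 kb, where the SF3B1-low genes had 12. Their median control level was 22.4 CPM, against 75.6 CPM for the SF3B1-low genes and 46.6 CPM for genes passing the filters. Of the SF3B1-low genes 38 lay above the upper quartile of control levels (101.8 CPM) and 14 below the lower quartile (21.0 CPM), where the SF3B1-high genes had 2 and 46. On the CPM of the rule, the median log2 ratio of the SF3B1-high genes to control was 0.77 in each SF3B1 library. That was larger in size than the ratio of the SF3B1-low genes. On TMM-scaled CPM it was 0.463 and 0.566, against -0.727 and -0.574 for the SF3B1-low genes, so the order of sizes changed with the scaling. Both groups were chosen on the same libraries, and the differences between them were not tested.

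Another group of 100 was chosen to be lower in all 4 SF3b libraries than in controls and DLC1 libraries (193 of 6042 genes had such values, 3.19%). It shared 6 genes with the SF3B1-low genes. Its median log2 ratio to control was -0.43 and -0.44 in the SF3B1 libraries, close to that of the SF3B1-low genes, and -0.45 and -0.52 in those of PHF5A. Its median span was 9.45 kb, with 4 genes of 100 to 300 kb. The SF3B1 values chose both groups, so these medians are a description of them, and the 2 groups were not tested against each other.

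**Figure D4:**
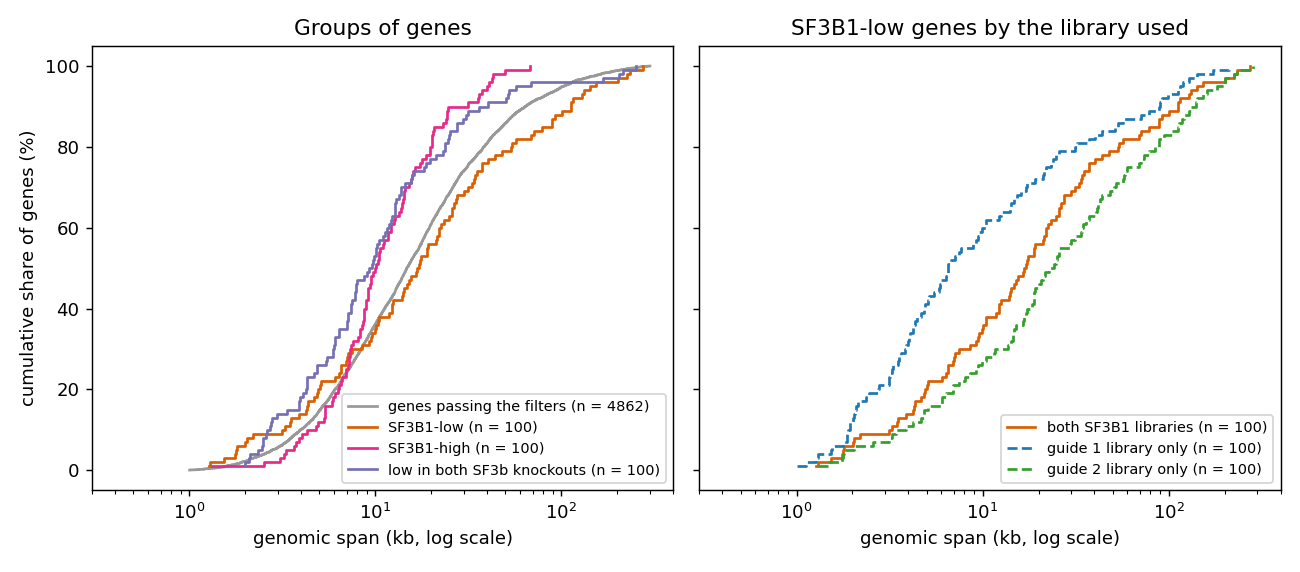
Cumulative share of genes by genomic span (kb, log scale). Left, the 4862 genes passing the filters, the SF3B1-low genes, the 100 SF3B1-high genes and the 100 lower in both SF3b knockouts, with medians of 14.7, 16.99, 10.02 and 9.45 kb; right, SF3B1-low genes chosen with both SF3B1 libraries or with 1 of them (medians 16.99, 6.52 and 23.4 kb).

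The SF3B1-low genes were scattered over the genome. They lay on 23 of the 25 chromosomes of the rule, with 0 on chromosomes 19 and 28. Chromosome 1 held 18 (2.699% of its genes passing the filters), chromosome 2 held 16 (3.35%) and chromosome 8 held 8 (4.42%), where 2.06% was the share over all chromosomes. Each strand held 50. Only 1 pair of SF3B1-low genes was adjacent among expressed features, on chromosome 2: the 234 kb gene and a 16.5 kb gene (19078355 to 19094875, minus strand), 319 kb apart. The 16.5 kb gene stood at 123.0 and 126.9 CPM in controls, 153.3 and 126.8 in DLC1, 142.4 and 114.9 in PHF5A and 102.3 and 87.1 in SF3B1 knockout. In both genes of the pair the guide 2 library held the lower SF3B1 value. The closest pair, on chromosome 3 (15420506 to 15430463, plus strand, and 15457010 to 15471049, minus strand), was 26.5 kb apart with another expressed feature between them.

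Expressed neighbours did not take the level of the SF3B1-low genes. The 196 expressed features next to them had a median log2 ratio of SF3B1 to control of 0.14, against 0.21 for all 8957 expressed features, and 35.2% against 32.9% lay below control. The span of 29 SF3B1-low genes overlapped another feature of the table on either strand, against 34.3% of genes passing the filters, 45 of the 100 SF3B1-high genes and 20 of the 100 genes lower with both subunits. On the same strand 10 SF3B1-low genes overlapped another feature, against 9.40% of genes passing the filters. On the opposite strand 20 did, against 27.7%. For the 29 genes the reads of the overlapping features cannot be told apart with certainty. For overlaps on opposite strands this depends on the strand setting used in counting, which was not given.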

How the data were processed

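Per the labels' protocols, RNA of GFP+ trunk neural crest cells went through Illumina's Stranded mRNA Prep. Per the submitters' processing notes, FastQC 0.12.1, Trimmomatic 0.39, STAR 2.7.11b, featureCounts 1.5.3 (Subread) and GRCg6a were used. The deposited values are the authors' raw read counts, 1 row per Ensembl gene. In 100% of rows the deposited length spans the feature's start to its end, so it is genomic. Such a length is what counting over whole gene spans gives, and that would take intronic reads into the counts. The counting settings themselves, strand included, are not stated.

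Every column was matched to a labelled sample by name. Genes were chosen and ranked with Python 3.11.15 (pandas 2.3.3). Fits used R 4.3.3 with edgeR 4.0.16 (filterByExpr, TMM, robust quasi-likelihood F-test), with DESeq2 1.42.0 and voom in limma 3.58.1 as alternatives. The edgeR fits were tested on simulated data. Each SE was derived from the log2 fold change and its F. Members, rule and lists were chosen with earlier results of these data known. Genes named are the 10 lowest ratios, the 5 highest control means, the 2 longest and 2 shortest spans, adjacent members and those at the threshold. The chi-square per degree of freedom between the 2 libraries of a group ran from 37.4 to 176.3, far above sampling noise. The floor of 3 counts was 0.0949 to 0.211 CPM. Intervals cover counting error only.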

Additional observations from a re-analysis of the deposited data

How the results depend on the processing

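The choice of genes rests on the scaling and on single libraries. Of the 100 genes, 52 were chosen again with CPM over all counts and 54 with CPM over TMM-scaled sizes, and 51 to 95 when 1 library was left out (51 and 53 without SF3B1 guide 1 and guide 2, 64 without control 2). Genes chosen without 1 SF3B1 guide stood at a median log2 ratio of -0.32 (guide 2) and -0.24 (guide 1) in it, against -0.41 for the 100. The median span was 6.52 kb to 23.4 kb with a library left out. For SF3B1 against control the count of 61 became 6 under library size scaling, 94 with DESeq2 and 0 when the W share was a covariate (an alternative chosen after seeing the data), and ran from 1 to 91 with a library left out. The median log2 fold change of -0.68 became -0.75 with median-ratio size factors and with DESeq2, -0.24 under library size scaling, -0.72 with no filter on low counts and -0.62 with the W share, and ran from -0.82 to -0.61 with a library left out. Against DLC1 the count of 25 became 10, 55 with no filter, 52 with DESeq2 and 5 with the W share (0 to 45 with a library left out). Against PHF5A the count of 2 (beside 3 of the 4862 called lower) became 1 (beside 2) with median-ratio factors and with voom. It became 0 (0) under library size scaling and with the W share, 19 (33) with no filter and 11 (17) with DESeq2. The median log2 fold change against PHF5A ran from -0.58 to -0.39 with a library left out. In DLC1 knockout the count of 1 (beside 195 of the 4862 called lower) became 2 with median-ratio factors (342) or no filter (367). It became 3 (524) with DESeq2 and 0 (0) with the W share. Under library size scaling it became 9, all higher, beside 260 of the 4862 called higher. The median log2 fold change in DLC1 knockout ran from -0.14 to 0.0005 with a library left out. In PHF5A knockout the count of 6 (beside 662 of the 4862 called lower) became 12 with median-ratio factors and with DESeq2. It became 3 (303) with the W share. The median log2 fold change in PHF5A knockout ran from -0.28 to -0.18 with a library left out. For the guides the count of 0 became 2 with DESeq2 and ran from 0 to 8. The causes were not tested. Deviations of same-numbered libraries correlated at -0.221 to 0.281 over 15619 genes (0.225 to 0.281 in 3 of the 6 pairs of groups, 0.0714 or lower in the other 3), so the numbers were not taken as pairs, though a shared component in some groups was not tested. With the replicate number as a block the counts were 92 against control, 59 against DLC1, 12 against PHF5A, 2 in DLC1 knockout and 11 in PHF5A knockout. Of the 4862 genes passing the filters, these fits called 670, 198, 17, 515 and 1035 lower, in the same order. Beside the counts of 12 in PHF5A knockout, 931 (median-ratio factors) and 1052 (DESeq2) of the 4862 were called lower. For SF3B1 against control, DESeq2 called 668 of the 4862 lower, beside the 94 of the 100. Counting intervals overlapped for 43 of the 100 genes, and these were not all genes of few reads. The 273 kb gene on chromosome 6 was among them, with 1984 and 1743 reads in the SF3B1 libraries and a 1.12-fold difference from control.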
